A study of Homo sapiens with 6 samples.

Results

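The 9 genes described here encode Janus kinases (JAK1 and JAK2), signal transducers and activators of transcription (STAT3, STAT5A, STAT5B and STAT6) and feedback inhibitors of the same pathway (SOCS1, SOCS3 and CISH). They were taken by gene name from a table of 58735 genes, and all 9 names were found, each on 1 row. The levels come from Raji, a human B-lymphoid line derived from a Burkitt lymphoma, in which every library carried the label GFP-ffluc as its genotype. The tested cells received 1 nM Bryostatin-1 and the control cells DMSO, in both cases overnight at 37 °C in RPMI medium with 10% serum, and polyadenylated RNA was sequenced from 3 libraries of each treatment. Bryostatin-1 is a macrolide lactone of marine origin that acts on protein kinase C through its C1 domains. Raji is a single tumour line, so the levels are those of 1 genetic background. Nothing in the labels says that the libraries of a treatment were grown as separate cultures, and the p-values therefore cover the spread among these libraries alone.

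JAK proteins sit on the inner tails of cytokine receptors. When a cytokine joins the receptor chains, the JAKs phosphorylate each other, the receptor and a STAT, and the paired STATs enter the nucleus and bind DNA. Several SOCS genes and CISH are themselves STAT targets, and their proteins bind the receptor or the kinase and feed the complex to a ubiquitin ligase, which closes a negative loop. In B cells the pathway is best known for the interleukin-4 response through STAT6 and the interleukin-21 response through STAT3. These steps run through phosphorylation, which RNA levels do not measure.

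Reads on genes, recovered from the deposited values, numbered 19405370 to 21406275 in the bryostatin libraries and 19883563 to 24468270 in the DMSO libraries. DMSO replicate 3 stood apart from its group. The chi-square of its reads against DMSO replicates 1 and 2 was 37.6 and 38.9 per gene, against 11.6 to 22.0 for every other pair within a treatment. All 6 B-cell markers examined were above 1 FPKM (fragments per unit of gene length and of sequencing depth), and their sum was 988 to 1370.3 FPKM in bryostatin libraries and 921 to 1458 FPKM in DMSO libraries. The summed markers of T and NK cells, of myeloid cells and of epithelial and stromal cells each stayed at or below 0.535 FPKM in bryostatin libraries and at or below 0.727 FPKM in DMSO libraries. The T and NK cell list had 2 of 6 markers, the myeloid list 1 of 5 and the epithelial and stromal list 3 of 6 with no read in any library. In a bulk library, fewer cells that express a gene and less of its RNA in each cell cannot be told apart.

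The 9 genes spanned a wide range of levels per length. STAT6 was the most abundant, with a mean over the 6 libraries of 42.9 FPKM, and SOCS1 (31.4 FPKM), STAT5B (27.9 FPKM) and JAK1 (21.8 FPKM) came next. STAT3 averaged 8.17 FPKM and JAK2 1.15 FPKM, while STAT5A averaged 0.222 FPKM. SOCS3 and CISH were represented by 2 or fewer reads in every library. The ranges of SOCS1 and STAT5B overlapped, SOCS1 being the higher in 5 of 6 libraries, as did those of SOCS3 and CISH. All other neighbours in this order had ranges that did not overlap over the 6 libraries. Thus 6 of the genes had a mean of at least 1 FPKM and entered the comparison, and STAT5A, SOCS3 and CISH did not.

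**Figure D1:**
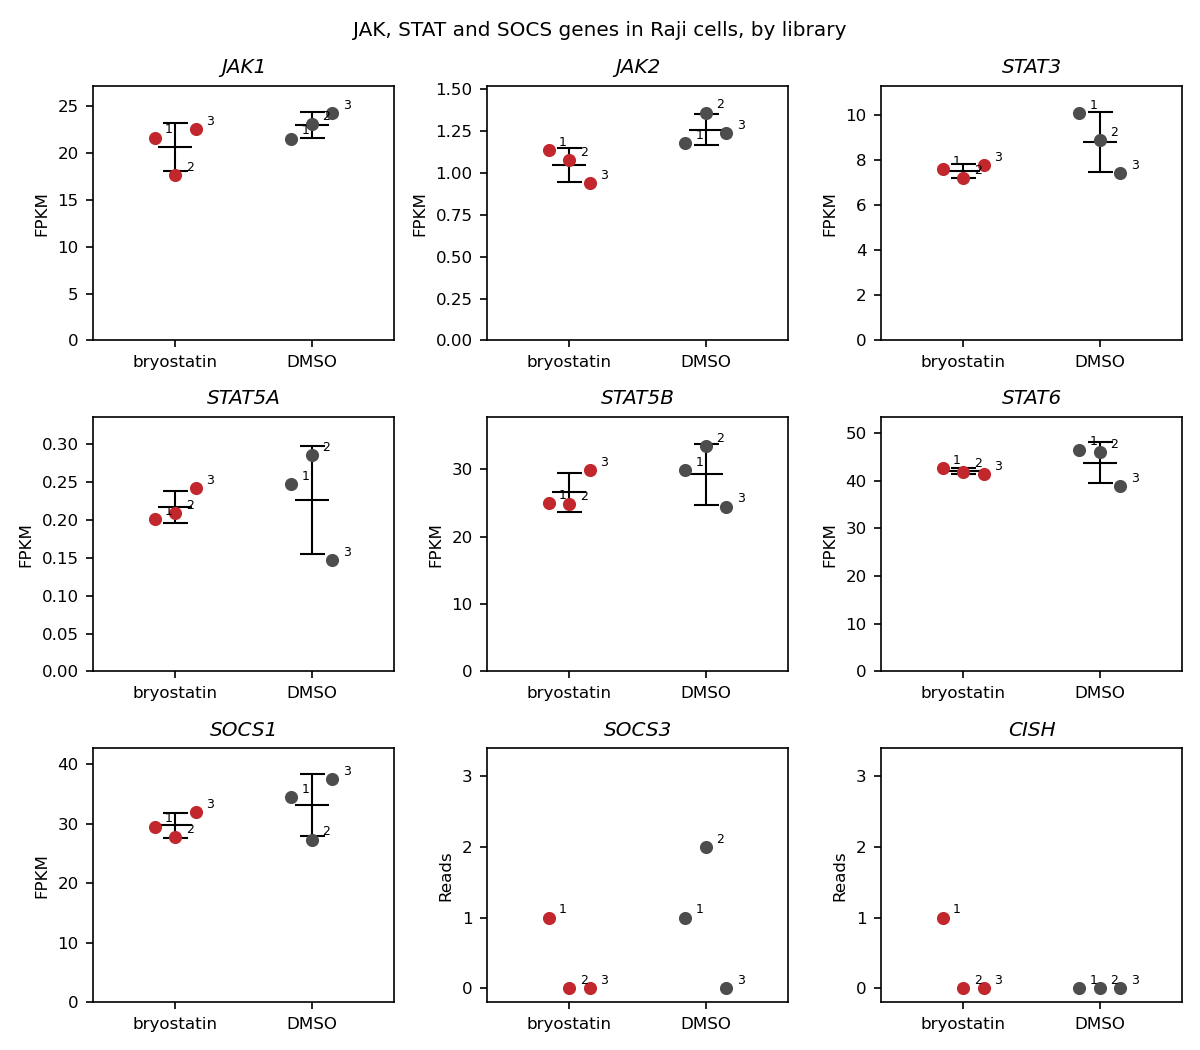
The level of each of the 9 genes in each library, bryostatin on the left and DMSO on the right of each panel, with points for libraries and bars for mean ± SD (n = 3); SOCS3 and CISH are shown as reads. JAK2 is the only gene whose 3 bryostatin points all lie below its 3 DMSO points.

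None of the 6 genes that could be compared changed with bryostatin by the threshold used, an adjusted p of 0.05 from limma on log2(FPKM + 1) over 11071 genes. The same holds for every other gene in that fit, so the share called was 0%. All 6 lay on the lower side of DMSO, by 0.06 to 0.19 on the log2 scale, with a median of -0.14. Over all genes tested the median was 0.02, and 46.1% of genes lay on the lower side. At an unadjusted p of 0.05, 1159 genes (10.5%) were higher and 795 genes (7.18%) were lower with bryostatin, and none of the 6 was among them. In JAK2 alone, every bryostatin library lay below every DMSO library, which 10.7% of all genes did, while 12.9% of all genes lay wholly above. These changes are on a scale that understates those of weakly expressed genes, and an exact two-sided permutation test of 3 libraries against 3 cannot give a p under 0.1.

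JAK1, the kinase that serves interferon, gp130 and common-chain receptors, is at chr1:64833229-64966504 on the minus strand (ENSG00000162434). It had 21.7, 17.7 and 22.6 FPKM in bryostatin libraries, against 21.6, 23.1 and 24.3 FPKM in DMSO libraries. Bryostatin replicate 2 was the lowest of the 6, and the other 2 bryostatin libraries lay among the DMSO values. The mean was 20.7 ± 2.59 FPKM with bryostatin and 23.0 ± 1.38 FPKM with DMSO (SD, n = 3 each). The log2 difference was -0.15 with a standard error of 0.111 and a 95% interval of -0.41 to 0.11, and the adjusted p from limma was 0.478. As a ratio, the interval runs from 0.750 to 1.08.

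JAK2, the kinase of the erythropoietin, thrombopoietin and other hormone-type receptors, is at chr9:4984390-5128183 on the plus strand (ENSG00000096968). It had 1.14, 1.08 and 0.939 FPKM in bryostatin libraries, against 1.18, 1.36 and 1.24 FPKM in DMSO libraries. The groups did not overlap, but the gap between the highest bryostatin value and the lowest DMSO value was narrow. On average 151 reads per library lay behind each value, a counting error of 8.13%, beside a coefficient of variation of 9.65% with bryostatin and 7.45% with DMSO. The spread between replicates was thus near the counting error. The log2 difference was -0.14 ± 0.109 (SE) with an adjusted p of 0.512 from limma, and the 95% interval of -0.40 to 0.12 spans no difference.

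The balance of the kinases was alike in the 2 treatments, with TYK2 and JAK1 making up nearly all JAK transcripts. TYK2, which serves interferon and interleukin-12 class receptors, had 52.0 ± 4.46% of the summed JAK FPKM with bryostatin and 51.2 ± 1.70% with DMSO. JAK1 had 45.6 ± 4.53% with bryostatin and 46.3 ± 1.73% with DMSO, and JAK2 had 2.33 ± 0.294% with bryostatin and 2.53 ± 0.109% with DMSO (SD, n = 3 each). JAK3, the partner of the common gamma chain, had 5, 2 and 3 reads in bryostatin libraries and 1, 1 and 6 reads in DMSO libraries, at most 0.0872% of the sum. The summed level of the 4 kinases was 45.2 ± 1.67 FPKM with bryostatin and 49.7 ± 2.01 FPKM with DMSO.

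STAT6, which carries the interleukin-4 and interleukin-13 signal, is at chr12:57095408-57132139 on the minus strand (ENSG00000166888). It had 42.6, 41.9 and 41.4 FPKM in bryostatin libraries, against 46.5, 46.0 and 38.9 FPKM in DMSO libraries. The bryostatin values lay close together and inside the DMSO range, whose low end was DMSO replicate 3. The mean was 42.0 ± 0.605 FPKM with bryostatin and 43.8 ± 4.25 FPKM with DMSO (SD, n = 3 each), and the log2 difference was -0.06 ± 0.0953 (SE) with an adjusted p of 0.783 from limma. With about 6659 reads per library, its counting error of 1.23% was the smallest of the 9 genes. The 95% interval of the ratio was 0.824 to 1.12. Its exons overlap those of NAB2, on the other strand, over 69 bases or 0.945% of their length, and those of LRP1 over 59 bases or 0.808%, and the strand setting of the read counting is not given in the sources used here.

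STAT3, STAT5A and STAT5B lie side by side on chromosome 17 within 189401 bases, in the order STAT5B, STAT5A, STAT3. STAT5B (chr17:42199168-42276707, minus strand, ENSG00000173757) and STAT5A (chr17:42287547-42311943, plus strand, ENSG00000126561) are 10839 bases apart, and STAT3 (chr17:42313324-42388568, minus strand, ENSG00000168610) begins 1380 bases beyond STAT5A. In spite of this closeness, the level of STAT5A was far below those of its neighbours in every library.

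STAT5B, the STAT of growth hormone and interleukin-2 signalling, had 25.0, 24.8 and 30.0 FPKM in bryostatin libraries, against 29.9, 33.5 and 24.5 FPKM in DMSO libraries. The groups overlapped widely, since bryostatin replicate 3 matched DMSO replicate 1 and the lowest value was DMSO replicate 3. The log2 difference was -0.13 ± 0.136 (SE) with an adjusted p of 0.631 from limma, and the 95% interval of the ratio was 0.733 to 1.14. It was the widest such interval among the 6 genes on the log2(FPKM + 1) scale.

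STAT5A, the close paralog known from prolactin signalling, had 0.202, 0.208 and 0.242 FPKM in bryostatin libraries, against 0.247, 0.286 and 0.147 FPKM in DMSO libraries. These values rest on 22, 24 and 30 reads in bryostatin libraries and 35, 36 and 17 reads in DMSO libraries. The lowest, 17 reads, has an exact 95% Poisson interval of 9.90 to 27.2 reads, for counting error only. STAT5A was below the limit of 1 FPKM for the comparison. Without that limit its difference in log2(FPKM + 1) was -0.01 (95% interval -0.15 to 0.13). At a mean of 0.222 FPKM the added 1 outweighs the level, so this narrow interval does not bound the fold change of STAT5A. The ratio of STAT5B to STAT5A was 122 ± 2.90 with bryostatin and 135 ± 27.1 with DMSO (SD, n = 3 each), and the highest value, 166, was in DMSO replicate 3. The paralogs share exact stretches of sequence. Of 4202 windows of 100 bases in STAT5A transcript sequence 371 (8.83%) also occur in STAT5B. Reads that lie wholly inside such a stretch, with no mate outside it, cannot be assigned to either gene by sequence. With so much more STAT5B, whether any of the STAT5A reads came from STAT5B transcripts was not tested, and the level of STAT5A is uncertain.

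STAT3, the STAT of interleukin-6, interleukin-10 and interleukin-21, had 7.61, 7.20 and 7.80 FPKM in bryostatin libraries, against 10.1, 8.89 and 7.45 FPKM in DMSO libraries. DMSO replicates 1 and 2 were above all bryostatin libraries, and DMSO replicate 3 lay inside their range. The mean was 7.54 ± 0.304 FPKM with bryostatin and 8.81 ± 1.32 FPKM with DMSO (SD, n = 3 each). The log2 difference of -0.19 ± 0.111 (SE) had an adjusted p of 0.390 from limma and a 95% interval of -0.45 to 0.07. It was the largest among the 6 genes on the log2(FPKM + 1) scale. With 0.1 added to FPKM in place of 1, JAK2 had the largest, -0.24 against -0.21 for STAT3.

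Per length, STAT6 made up 48.8 ± 2.56% of the summed level of the 6 STAT genes reported with bryostatin and 46.3 ± 1.80% with DMSO. STAT5B made up 30.8 ± 2.40% with bryostatin and 30.8 ± 1.90% with DMSO, and STAT3 made up 8.76 ± 0.407% with bryostatin and 9.28 ± 0.560% with DMSO (SD, n = 3 each). The ratio of STAT6 to STAT3 was 5.60, 5.82 and 5.31 in bryostatin libraries and 4.61, 5.17 and 5.22 in DMSO libraries. The bryostatin ratios were all above the DMSO ratios, with neighbouring values of 5.31 and 5.22, a gap far smaller than the spread within either treatment. The other ratios examined, such as JAK1 to JAK2, overlapped between treatments. How often ratios of other genes separate the treatments was not counted. Of the other STAT genes, STAT2, which works in the type I interferon response, had 7.44, 11.9 and 10.0 FPKM in bryostatin libraries against 15.7, 13.2 and 9.44 FPKM in DMSO libraries. Its log2 difference of -0.35 had an adjusted p of 0.411 from limma, and its groups overlapped. STAT4 had no read in any library, which allows at most 0.0331 FPKM.

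**Figure D2:**
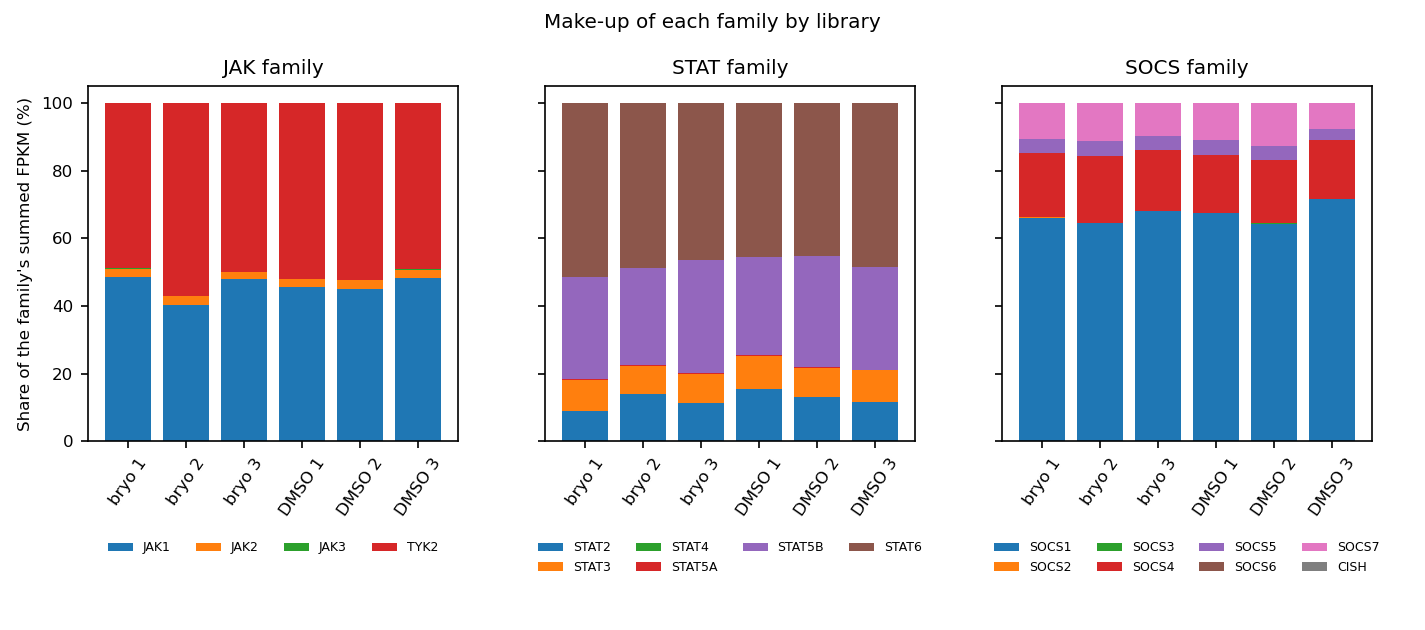
The share of each gene in the summed FPKM of the genes shown for its family (JAK, STAT, SOCS with CISH), in percent, for each library, bryostatin left and DMSO right. TYK2 and JAK1, STAT6 and STAT5B, and SOCS1 hold most of those sums in all 6 libraries.

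SOCS1, which binds JAK catalytic domains and blocks them, is a gene of 1 exon at chr16:11254405-11256200 on the minus strand (ENSG00000185338). It lies inside RMI2, a gene of the other strand at 14.4 FPKM, with no shared exonic base. SOCS1 had 29.5, 27.8 and 32.0 FPKM in bryostatin libraries, against 34.5, 27.3 and 37.4 FPKM in DMSO libraries. The lowest and the highest of the 6 values were both DMSO libraries, so the bryostatin values lay between them. The mean was 29.8 ± 2.09 FPKM with bryostatin and 33.1 ± 5.20 FPKM with DMSO (SD, n = 3 each), and the log2 difference was -0.14 ± 0.129 (SE) with an adjusted p of 0.583 from limma. The 95% interval of the ratio was 0.736 to 1.12.

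SOCS3, the inhibitor that binds gp130, is at chr17:78356778-78360077 on the minus strand (ENSG00000184557). It had 1, 0 and 0 reads in bryostatin libraries and 1, 2 and 0 reads in DMSO libraries. At this depth a count of 0 allows up to 3 reads, which over the 6 libraries is 0.0445 to 0.0579 FPKM for SOCS3. CISH, an inhibitor of cytokine receptors that is a classical STAT5 target, is at chr3:50606490-50611831 on the minus strand (ENSG00000114737). It had 1, 0 and 0 reads in bryostatin libraries and no read in any DMSO library. Over the 6 libraries, 3 reads of CISH equal 0.0238 to 0.0309 FPKM. Both genes stayed at or under the limit of 3 reads in all 6 libraries, so no difference between treatments was detectable. A share of 4.26% of the CISH exons, 218 bases, overlaps MAPKAPK3, which is on the other strand and averaged 12.4 FPKM. The strand setting of the read counting is not given, so how reads there were assigned is not known.

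Within their family, SOCS1 held 66.2 ± 1.67% of the summed level with bryostatin and 67.8 ± 3.67% with DMSO, and SOCS4, a member known to act on the EGF receptor, held 19.0 ± 0.839% with bryostatin and 17.8 ± 0.783% with DMSO. SOCS4 itself was nearly constant at 8.53, 8.53 and 8.54 FPKM in bryostatin libraries, against 8.85, 7.94 and 9.09 FPKM in DMSO libraries. SOCS2 had 6 reads in bryostatin replicate 1 and none elsewhere, and SOCS6 had none anywhere.

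The promoters of the most and the least abundant of these inhibitors are shown because STAT proteins bind the palindromes TTCNNNGAA and, for STAT6 above all, TTCNNNNGAA. Both motifs read the same on either strand, and a match to one may overlap a match to the other. The sequences are from RefSeq (GRCh38.p14), with windows of 250 bases before and 50 after each start, and all 9 genes had at least 1 window, 17 in all. The CISH sequence is chr3:50611832-50612024 and the SOCS1 sequence is chr16:11256205-11256454, both on the minus strand and written 5′ to 3′, with matches to TTCNNNGAA in capitals. The CISH sequence ends 58 bases before the RefSeq start, at the edge of the annotated gene.
CISH: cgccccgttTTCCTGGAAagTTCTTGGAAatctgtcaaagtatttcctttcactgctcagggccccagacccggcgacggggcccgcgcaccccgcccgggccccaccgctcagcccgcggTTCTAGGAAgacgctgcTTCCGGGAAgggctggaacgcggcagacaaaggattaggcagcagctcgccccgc
SOCS1: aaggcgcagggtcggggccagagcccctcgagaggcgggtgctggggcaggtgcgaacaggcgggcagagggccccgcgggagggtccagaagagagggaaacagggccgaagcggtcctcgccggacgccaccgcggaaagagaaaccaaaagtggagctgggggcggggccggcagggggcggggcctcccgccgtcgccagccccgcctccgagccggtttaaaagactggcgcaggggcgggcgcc
The 4 matches upstream of CISH begin at -241, -230, -129 and -112 from its RefSeq start and read TTCCTGGAA, TTCTTGGAA, TTCTAGGAA and TTCCGGGAA. Of 35116 RefSeq windows of this length, 7.66% hold at least 1 TTCNNNGAA and 0.0199% (7 windows) hold 4 or more. SOCS1 has neither palindrome in its window. The only other match among the 9 genes is 1 TTCNNNNGAA (TTCCTCTGAA) at -229 of 1 of the STAT5A starts, a motif held by 6.44% of all windows. A match is only a run of letters and no measure of binding in these cells.

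**Figure D3:**
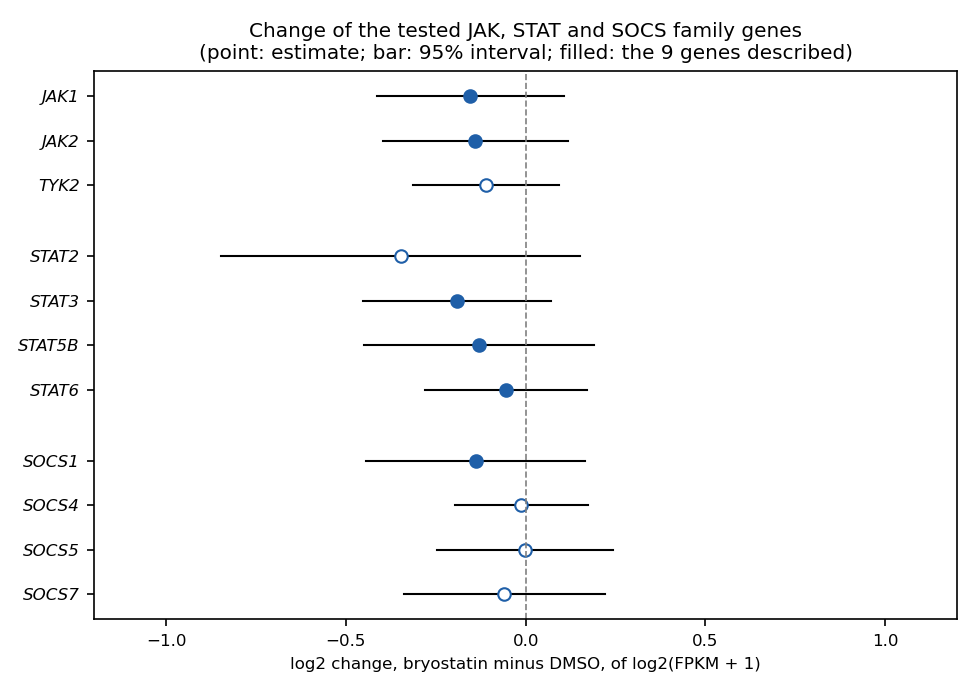
The log2 difference in FPKM + 1, bryostatin minus DMSO, with its 95% interval, for the 6 genes described (filled) and 5 other genes of the JAK, STAT and SOCS families (open). The interval of each gene shown includes 0.

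Of 9 other JAK, STAT and SOCS family genes reported here, TYK2, STAT2, SOCS4, SOCS5 and SOCS7 could be compared, and none of the 5 passed the adjusted or the unadjusted threshold. The position of DMSO replicate 3 differed from gene to gene. It was above all bryostatin libraries for JAK1, JAK2 and SOCS1, below all of them for STAT5B, STAT5A and STAT6, and inside their range for STAT3. Without that library the log2 difference of STAT3 was -0.30 with an adjusted p of 0.108 from limma, the smallest reached by any of the 6 genes in any setting tried.

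The wider pathway was read through 13 lists of 121 symbols, of which 119 were in the table, the other 2 being older names of genes already listed. A total of 67 could be compared, 19 of them higher and 48 lower with bryostatin, with a median log2 difference of -0.11, and none passed the adjusted threshold in limma. At an unadjusted p of 0.05, 1 was higher and 7 were lower, beside 10.5% of all genes higher and 7.18% lower. The 7 became 4 without bryostatin replicate 1, 2 without DMSO replicate 1, 13 without DMSO replicate 3, 11 with TPM or voom and 4 with no filter on low values. In 8 of the 67 every bryostatin library lay below every DMSO library, as it did in 10.7% of all genes.

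Ligands were scarce. Only 3 of 24 cytokine ligands could be compared, and 13 had no read in any library. All 3 lay lower. EBI3, the shared subunit of interleukin-27 and interleukin-35, was the most abundant at 93.1, 72.2 and 94.0 FPKM in bryostatin libraries, against 149, 158 and 91.4 FPKM in DMSO libraries. DMSO replicate 3 lay among the bryostatin libraries, and the log2 difference of -0.58 ± 0.221 (SE) had an adjusted p of 0.251 from limma. Without that library the difference was -0.83 with an adjusted p of 0.0447 from limma. EBI3 was then the only gene of the 67 to pass, in a fit in which 267 of all genes (2.41%) passed. With any other single library left out, the EBI3 difference lay between -0.65 and -0.44, with an adjusted p of 0.367 to 0.594 from limma. IL10 had 3.33, 3.36 and 3.46 FPKM in bryostatin libraries, against 3.60, 3.24 and 4.86 FPKM in DMSO libraries.

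Receptors for the expressed JAK and STAT genes were present. Of the common-chain and interleukin-4 class, 6 of 8 could be compared, 1 higher and 5 lower. IL4R, the interleukin-4 receptor chain that docks STAT6, had 41.3, 60.0 and 49.4 FPKM in bryostatin libraries, against 52.1, 48.2 and 47.3 FPKM in DMSO libraries, with a log2 difference of 0.01. IL15RA, the interleukin-15 receptor chain, was at 1.93, 1.83 and 2.44 FPKM in bryostatin libraries, against 2.57, 3.18 and 2.51 FPKM in DMSO libraries, without overlap (log2 difference -0.29, adjusted p from limma 0.271). Of the gp130, interleukin-10 and interleukin-12 class, 4 of 11 could be compared and all 4 lay lower. IL6ST, which encodes gp130, had 2.53, 3.12 and 3.14 FPKM in bryostatin libraries, against 3.91, 3.94 and 3.34 FPKM in DMSO libraries, again without overlap (log2 difference -0.27, adjusted p from limma 0.256). For IL15RA and IL6ST every bryostatin library lay below every DMSO library, which was so for 10.7% of all genes. Of the interferon receptors 1 lay higher and 3 lower, and of the hormone and growth factor receptors 2 lay higher and none lower.

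Most of the compared genes on the STAT and interferon target lists lay lower with bryostatin, and none passed the adjusted threshold. For STAT3 and STAT5, 4 of 13 were higher and 9 lower, with a median of -0.13. BCL2, the survival gene, had 3.77, 4.77 and 5.01 FPKM in bryostatin libraries, against 7.12, 6.18 and 6.45 FPKM in DMSO libraries. The 3 bryostatin libraries were all below the DMSO libraries, and the log2 difference of -0.46 had an adjusted p of 0.216 from limma. For STAT6, 1 of 5 was higher and 4 were lower, with a median of -0.45, and IL4R and IL2RG stand on this list and on that of the receptors. CCL22, a chemokine gene induced by interleukin-4, had 12.1, 19.5 and 13.8 FPKM in bryostatin libraries, against 45.8, 25.2 and 29.8 FPKM in DMSO libraries. As with BCL2, every bryostatin library was below every DMSO library, which was so for 10.7% of all genes. The log2 difference of CCL22, -1.08 ± 0.246 (SE), had an adjusted p of 0.216 from limma. Of the interferon-stimulated genes, 2 of 6 were higher and 4 lower, and ISG15, an interferon-stimulated ubiquitin-like gene, had 38.0, 36.3 and 36.4 FPKM in bryostatin libraries against 37.7, 32.8 and 31.8 FPKM in DMSO libraries. All of these genes respond to other signals besides STATs.

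Partners of the SOCS box, the ubiquitin ligase subunits through which SOCS proteins act, lay mostly higher, 4 of 5. ELOC, which encodes elongin C, had 21.4, 16.2 and 15.0 FPKM in bryostatin libraries, against 11.7, 13.2 and 14.0 FPKM in DMSO libraries. Every bryostatin library was above every DMSO library, as were 12.9% of all genes, and the log2 difference of 0.40 ± 0.141 (SE) had an adjusted p of 0.240 from limma. Without bryostatin replicate 1, the highest library, the difference was 0.25. The other inhibitors of the pathway, phosphatases and PIAS proteins among them, were split 5 higher and 5 lower.

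**Figure D4:**
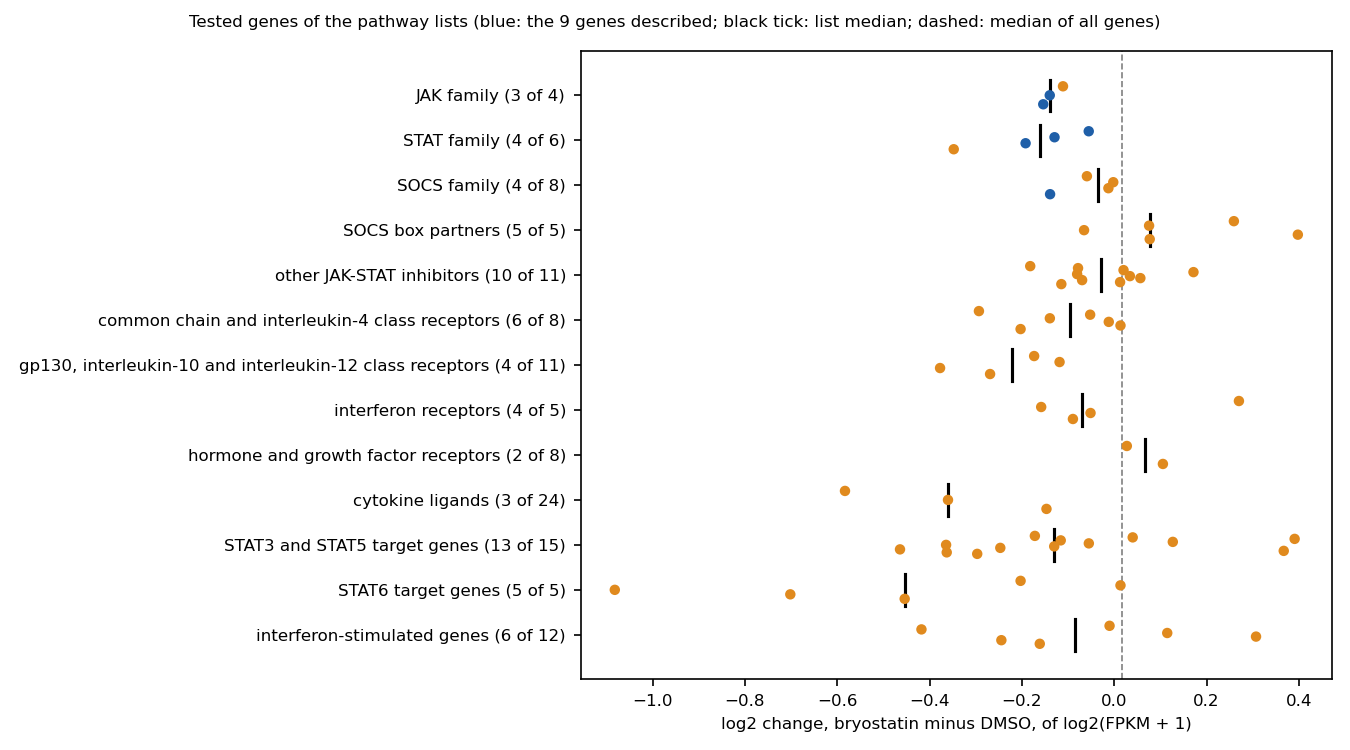
The log2 difference, bryostatin minus DMSO, of each tested gene in each pathway list, with the list median marked. The STAT6 target list has the lowest median, -0.45, and the SOCS box partners the highest, 0.08.

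For the most abundant of the 9 genes in each class, the protein-coding genes with at least 5 FPKM (6162 candidates) were ranked by Pearson r of log2(FPKM + 1) over the 6 libraries. JAK1 was most like COQ2 (0.997), ZNF267 (0.988) and MYLIP (0.983). STAT6 was most like CD79B (0.993), CD82 (0.990) and TMEM101 (0.990), and SOCS1 was most like FOXK2 (0.988), HPS5 (0.976) and SIMC1 (0.974). With 6 points, values above 0.9 were reached by 36 genes for JAK1, 67 for STAT6 and 62 for SOCS1, and the points share their libraries and depth.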

How the data were processed

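Polyadenylated RNA of 3 bryostatin and 3 DMSO libraries was extracted with a silica column kit, per the labels' protocols. The authors deposited FPKM values for 58735 genes with their gene lengths. The aligner HISAT2 (2.0.5) and the counter featureCounts (1.5.0-p3) are listed with the genome hg38, beside DESeq2 (1.20.0) and CASAVA, without their roles, per the submitters' processing notes; the strand setting is not given in the sources used here. All 58735 gene coordinates equal GENCODE release 29.

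FPKM times gene length gave whole reads for 100% of values, within 0.001 reads. The depth puts 3 reads, the limit a count of 0 allows, at 0.123 to 0.155 CPM, and intervals and limits cover counting error only. The 11071 genes averaging 1 FPKM or more went into limma 3.58.1 (R 4.3.3) on the log2(FPKM + 1) scale, with an intensity trend and Benjamini-Hochberg adjustment over all of them, at a threshold of 0.05. FPKM is not a count, so a count model was not the main test.

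The 9 genes and the lists were chosen with earlier results of these data known. Named are the 9 genes and, per list, the 2 most abundant tested genes and up to 2 with the smallest unadjusted p under 0.05; STAT2, SOCS5, SOCS7 and the small counts of JAK3, STAT4, SOCS2 and SOCS6 were added after their values were seen. A gene of the family lists is not reported here and is in no list count, share or figure. Values of some genes the rule takes appear only in the closing section or not at all. The values of IL2RG, in the closing section, are outside the rule. Alternatives were other pseudocounts, filters, scalings and moderation, voom on the recovered reads, a replicate block, restriction to protein-coding genes, and leaving out single libraries.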

Additional observations from a re-analysis of the deposited data

How the results depend on the processing

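None of the 6 compared genes passed the adjusted threshold under any of the 19 alternatives that tested it (JAK2 is not tested with a filter of 5 FPKM), and all 113 values stayed on the lower side. The log2 difference of JAK1 lay between -0.23 and -0.05, of JAK2 between -0.28 and -0.10, of STAT3 between -0.30 and -0.10, of STAT5B between -0.25 and -0.03, of STAT6 between -0.16 and -0.01 and of SOCS1 between -0.27 and -0.05. Over all genes, 0 passed (1159 higher and 795 lower at an unadjusted p of 0.05), 1 with a pseudocount of 0.1, 1 with TPM and 0 to 267 with 1 library left out. The 267 (196 higher, 71 lower) came without DMSO replicate 3, and the cause was not tested. For the pathway lists the count was 0, and 0 to 1 with 1 library left out. The unadjusted split depended on scaling, with 848 higher and 1099 lower for TPM, 893 and 1017 for quantile scaling and 1152 and 1029 for voom. The median gene lay between -0.03 with TPM and 0.05 with a filter of 5 FPKM. voom called 0 genes.

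Bryostatin and DMSO libraries of the same number did not deviate together from their group means (correlations of -0.292, -0.322 and -0.106). The labels state no pairing, and these correlations cannot tell whether libraries of the same number were prepared together. With the replicate block 0 genes passed and 1191 had an unadjusted p under 0.05 (784 higher, 407 lower), and the smallest adjusted p among the 6 genes was 0.551.

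Differences of these other named genes changed sign. With quantile scaling ELOB was at -0.031, IL4R at -0.11, MS4A1 at -0.017 and SOCS5 at 0.012; with TPM IL4R was at -0.035 and CSF2RB at -0.0085; with voom IL4R was at -0.004. With 1 library left out the ranges were -0.065 to 0.022 for SOCS4, -0.18 to 0.74 for PTPN6, -0.18 to 0.016 for PTPRC, -0.12 to 0.14 for IL4R, -0.24 to 0.17 for IL21R, -0.28 to 0.17 for IFNGR1, -0.12 to 0.19 for CSF2RB, -0.064 to 0.047 for BST2, -0.017 to 0.30 for CD79A, -0.071 to 0.39 for MS4A1, -0.046 to 0.072 for SOCS5 and -0.19 to 0.017 for SOCS7. Depth limits STAT5A, SOCS3 and CISH, which rest on few reads.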

Other observations

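PTPN6, which encodes SHP-1, a phosphatase that removes phosphate from JAKs and B-cell receptor components, varied far more within treatments than between them. It had 111, 32.6 and 103 FPKM in bryostatin libraries, against 54.0, 125 and 38.8 FPKM in DMSO libraries, with a log2 difference of 0.17 ± 0.567 (SE) and an adjusted p of 0.894 from limma. Bryostatin replicates 1 and 3 and DMSO replicate 2 were high, and the other 3 libraries were low. The same 3 libraries had the highest values of DUSP5, a phosphatase of MAP kinases, for bryostatin at 30.5, 12.02 and 40.8 FPKM and for DMSO at 27.7, 37.2 and 13.4 FPKM. IFNGR1, the ligand-binding interferon gamma receptor chain, had the same 3 libraries highest, with 16.9, 11.0 and 17.3 FPKM for bryostatin and 15.4, 21.4 and 11.0 FPKM for DMSO. DUSP5 was chosen after its values were seen, and the similarity was not tested.

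JAK3, with 1 to 6 reads per library, was almost absent while the receptor chains it is known to serve were expressed. IL2RG, the common gamma chain, had 11.9, 8.86 and 12.4 FPKM in bryostatin libraries, against 13.4, 12.8 and 12.2 FPKM in DMSO libraries. IL21R had 27.3, 20.1 and 31.4 FPKM in bryostatin libraries, against 27.9, 33.7 and 18.7 FPKM in DMSO libraries.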
